A study of Mus musculus with 4 samples.

Results

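The genes described here encode the intracellular relay of Toll-like receptor (TLR) and interleukin-1 (IL-1) receptor signalling in mouse salivary glands (SGs). They are the 10 genes Myd88, Tirap, Ticam1, Ticam2, Irak1, Irak2, Irak3, Irak4, Traf6 and Map3k7, taken as every non-control probe whose gene name in the array files equals one of these symbols. This rule, which uses no measured value, found 18 of the 55681 probes and 10 of the 34844 gene names on the array.

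When a TLR or an IL-1 family receptor binds its ligand, it gathers adaptor proteins through shared TIR domains. MyD88, helped at some receptors by the bridging adaptor TIRAP, recruits the kinases IRAK4, IRAK1 and IRAK2, and these activate the ubiquitin ligase TRAF6, which engages the kinase TAK1 (the product of Map3k7) upstream of NF-kB and the MAP kinases. TRIF (Ticam1), joined to TLR4 by TRAM (Ticam2), opens a second route towards interferon regulatory factors, and IRAK-M (Irak3) is known as a brake on the first.

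Total RNA from the submandibular gland together with the sublingual gland was labelled with Cy3 and hybridized to 1-colour Agilent whole mouse genome arrays. The study's legends name the submandibular gland alone and more mice per group than there are arrays here, and the labels were followed. The labels assign 2 arrays to Myd88-KO mice, whose genotype is given as Myd88-null, and 2 to Wildtype mice. All 4 samples are labelled female, strain C57/BL6 and 10 weeks of age. Mice of both genotypes had heterozygous parents, and the null allele is carried by the whole animal and not by a chosen cell type. The labels do not say whether arrays of a group come from separate animals, so the p-values measure only the spread between these samples, and with 2 arrays against 2 the smallest two-sided p of an exact permutation test is 0.333.

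Values are log2 signals of a probe relative to the 75th percentile of its own array, so that 0 is the level of the 75th percentile, and differences are Myd88-KO minus Wildtype. Signals of different probes are not compared, because probes differ in how well they bind. That percentile was between 237 and 321 intensity units, no spot was saturated, and 52.2% and 68.4% of probes on Myd88-KO arrays 1 and 2, and 74.1% and 55.1% on Wildtype arrays 1 and 2, stood well above background. All 7 submandibular acinar, 6 granular duct and 4 sublingual marker genes examined were well above background on every array. In whole-gland RNA, fewer cells of a type and less RNA per cell cannot be told apart.

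The letters of 4 probes are printed 5′ to 3′ with their position in mm9, and the reason for showing each follows them. For Myd88 the first 30 of 60 bases are shown.
Myd88, chr9:119245322-119245381, minus strand: ggtttgcatcttcttattcctttcacgttc
Irak2, base 1870, chr6:113643695-113643754, plus strand: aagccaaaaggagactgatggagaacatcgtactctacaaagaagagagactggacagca
Irak4, base 662, chr15:94384447-94385174, plus strand: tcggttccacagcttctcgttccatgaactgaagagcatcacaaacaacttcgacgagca
Irak1, base 2249, chrX:71260779-71260838, minus strand: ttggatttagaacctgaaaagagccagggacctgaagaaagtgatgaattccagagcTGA
The Myd88 probe is shown because the deleted gene rests on it alone. The Irak2 probe is the dimmer of a pair whose values differed. The Irak4 probe covers 728 bases of genome with 60 bases of transcript and therefore crosses an exon junction. The Irak1 probe ends in the letters of a stop codon, in capitals, and is annotated to another transcript than the other Irak1 probes. Whether it reads that transcript alone was not tested.

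Of the 10 genes, 9 had a probe well above background on all 4 arrays and were compared. In limma's moderated test over 22312 genes, 0 of the 9 passed a Benjamini-Hochberg adjusted p of 0.05, and 0% of all genes did. Without adjustment, 2 of the 9, Myd88 and Tirap, had p under 0.05 and both were higher on the Myd88-KO arrays, against 16.7% of all genes in either direction and 9.82% in that direction. Neither gene had p under 0.05 in limma when arrays were scaled to their median. There 4.46% of all genes did, and all 9 genes had the same standard error, 0.54. With the scaling used here and each of the 4 arrays left out in turn, Myd88 differed by 0.30 to 0.40 and Tirap by 0.34 to 0.60. The Myd88-KO and Wildtype arrays did not overlap for 8 of the 9 genes, where 52% of all genes did not overlap. Of these 8, 7 were higher (33.2% of all genes) and 1, Traf6, was lower (18.7% of all genes) on the Myd88-KO arrays. This separation depends on the scaling: relative to the median of each array 0 of the 9 genes were free of overlap, against 13.7% of all genes, and without scaling 2 were, against 47.1%. The median difference of the 9 was 0.23 log2 units, against 0.06 over all genes. Of the 22312 genes, 13295 were higher and 9017 lower on the Myd88-KO arrays with this scaling, and of the 9, 8 were higher and 1 lower. The split of 8 higher and 1 lower was the same under 5 ways of scaling and with normexp, another background correction, but without scaling it was 4 higher and 5 lower, since Irak1, Irak2, Irak3 and Map3k7 turned negative. The median of all genes moved to -0.19 without scaling. Leaving out the scaling shifts the difference of every gene by the same amount. The number of genes above that median, 8 of the 9, was therefore bound to stay as with the scaling used here. With normexp 6 of the 9 stood above the median of all genes.

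**Figure D1:**
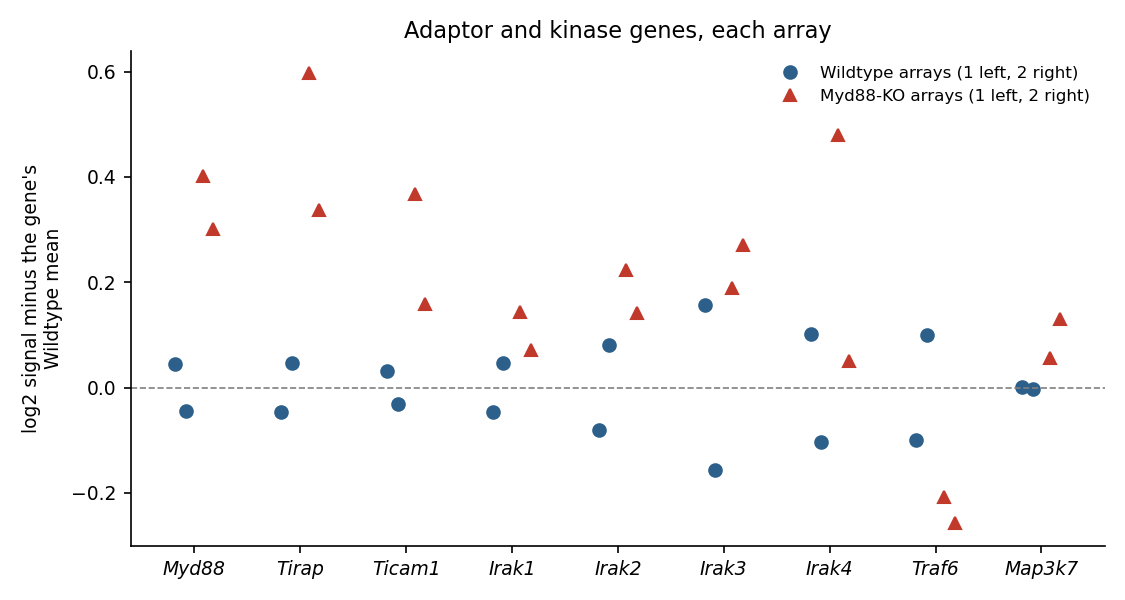
Log2 signal of the brightest tested probe of 9 adaptor and kinase genes on each of the 4 arrays, minus the gene's mean over the 2 Wildtype arrays (circles, Wildtype; triangles, Myd88-KO). The Myd88-KO arrays lie above both Wildtype arrays for 7 genes and below them for Traf6. For Irak4, Myd88-KO array 1 lies above both Wildtype arrays and Myd88-KO array 2 between them.

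Among the TIR adaptors, Myd88 itself gave signal on every array. The single Myd88 probe, which starts at base 1629 of its transcript, is printed as 10 spots per array. Its log2 signal was 1.51 and 1.41 on the Myd88-KO arrays and 1.15 and 1.07 on the Wildtype arrays. Within an array the spots had an SD of 0.05 to 0.07, and the lowest spot used on either Myd88-KO array, at 1.32, lay above the highest spot on either Wildtype array, at 1.24. On Myd88-KO array 1, 1 spot marked as an outlier by the scanner software was left out. The difference was 0.35 log2 units (standard error 0.11, 1.28-fold; unadjusted p = 0.033, adjusted p = 0.264 from limma), with a 95% interval of 0.05 to 0.66. Spots of an array share its RNA and are not replicates of the genotype. Before scaling, the median spot read 737 and 636 intensity units on the Myd88-KO arrays and 711 and 563 on the Wildtype arrays, so the arrays of the groups overlapped before scaling. The sources used here do not state which exons the null allele lacks, so the probe does not check the labels, and no loss of Myd88 signal can be read from it.

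**Figure D2:**
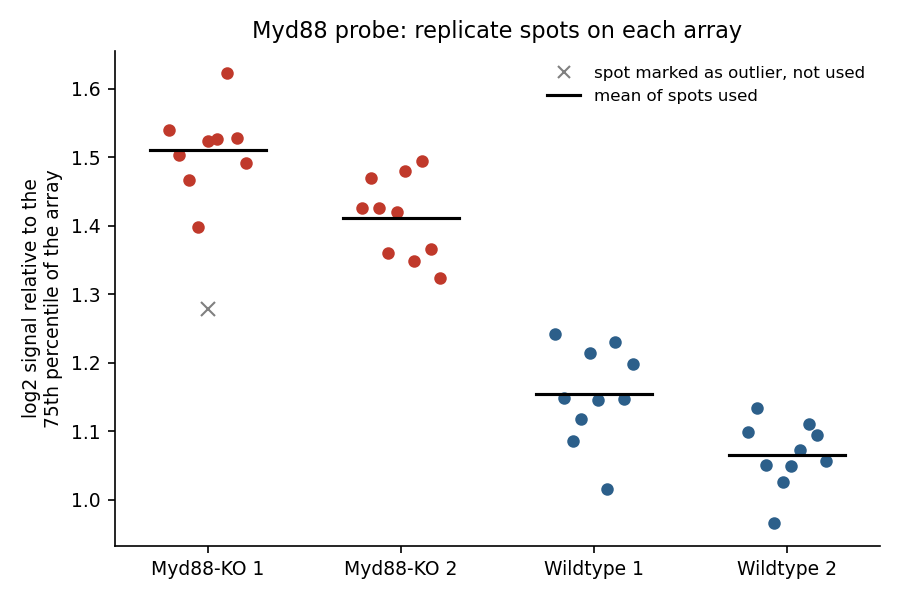
Log2 signal, relative to the 75th percentile of the array, of each replicate spot of the Myd88 probe on the 4 arrays (points; lines, mean of the spots used; cross, the spot left out). Spots used on the Myd88-KO arrays lie between 1.32 and 1.62 and spots on the Wildtype arrays between 0.97 and 1.24.

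Over the 4 arrays, after centring each gene on its own mean, the genes closest to Myd88 by root mean square distance were Rabac1 (0.0050), a transcript named only by its place on chromosome 12 (0.0068) and Fmo2 (0.0068). With 4 arrays such closeness is common, and 361 genes lay within 0.05 of Myd88.

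Tirap, the bridging adaptor of TLR2 and TLR4, showed the largest difference of the 9 genes. Its probe (chr9:34994936-34994995, base 1721) read 1.75 and 1.49 on the Myd88-KO arrays and 1.11 and 1.20 on the Wildtype arrays. Both Myd88-KO arrays were above both Wildtype arrays, and the Myd88-KO arrays were 0.26 apart. The difference was 0.47 log2 units (standard error 0.14, 1.38-fold; unadjusted p = 0.031, adjusted p = 0.261 from limma). Without Myd88-KO array 1 it was 0.34, and without Myd88-KO array 2 it was 0.60.

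The TRIF adaptor gene Ticam1 (chr17:56409265-56409324, base 2390) read 1.22 and 1.01 on the Myd88-KO arrays against 0.89 and 0.82 on the Wildtype arrays. The groups did not overlap, and the difference of 0.26 log2 units (standard error 0.12 and adjusted p = 0.388 in limma) was larger than the SDs between arrays of a group, 0.15 and 0.04. It was 0.16 without Myd88-KO array 1. Ticam2, which encodes the TRAM adaptor, could not be compared. Its only probe was not well above background on any of the 4 arrays, at 2.84 to 9.83 intensity units, so no fold was formed.

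The receptor-proximal kinases come next. IRAK4 is the kinase that MyD88 binds first. The brighter of the Irak4 probes (chr15:94397743-94397802, base 1819) read -1.96 and -2.39 on the Myd88-KO arrays and -2.34 and -2.54 on the Wildtype arrays. Myd88-KO array 2 lay between the Wildtype arrays, and the difference of 0.27 log2 units (standard error 0.20 and adjusted p = 0.557 in limma) was below the SD of 0.30 between the Myd88-KO arrays. It was 0.05 without Myd88-KO array 1, 0.48 without Myd88-KO array 2 and 0.16 without Wildtype array 2. The Irak4 probe across the exon junction also overlapped, at -3.74 and -2.65 against -3.22 and -3.34, with Myd88-KO array 1 the lowest of the 4 and Myd88-KO array 2 the highest.

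Irak1, whose product is phosphorylated by IRAK4, has 3 probes, and all 3 were slightly higher on the Myd88-KO arrays. The brightest (chrX:71259533-71259592, base 3495) read 3.09 and 3.01 against 2.90 and 2.99, a difference of 0.11 log2 units (standard error 0.10 and adjusted p = 0.652 in limma). The probe at base 2249, printed above, read 2.17 and 2.22 against 2.05 and 1.94. The probe at base 2031 (chrX:71262475-71262534) read 1.74 and 1.92 against 1.67 and 1.43. None of the 3 overlapped between the groups, and their differences of 0.11, 0.20 and 0.28 had p above 0.05 in limma's fit over all 31016 tested probes, with unadjusted p = 0.393, 0.151 and 0.141.

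Irak2, a partner kinase in the same complex, has probes that behaved differently. The probe at base 3079 read 4.62 and 4.54 on the Myd88-KO arrays and 4.32 and 4.48 on the Wildtype arrays, a difference of 0.18 (standard error 0.12 and adjusted p = 0.495 in limma) with no overlap. Without Wildtype array 1 this difference was 0.10. The probe at base 1870 read -3.34 and -1.85 on the Myd88-KO arrays and -2.06 and -3.36 on the Wildtype arrays. It was thus high on Myd88-KO array 2 and Wildtype array 1, the arrays with most probes above background, and low on the other 2, and its difference of 0.12 had a 95% interval of -1.98 to 2.21 in the fit over probes. Runs of 16 bases were compared with probes of other genes, and matches on either strand were counted. The brighter Irak2 probe shared at least 1 such run with each of 3 probes of other genes. The other 17 probes of the adaptor and kinase genes each shared such a run with at most 1. How much of the signal of the brighter Irak2 probe comes from other transcripts was not tested.

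Irak3, the brake IRAK-M, is read by 1 probe (chr10:119578999-119579058, base 2620). It gave -0.21 and -0.13 on the Myd88-KO arrays and -0.24 and -0.55 on the Wildtype arrays. The groups stood apart by 0.03 at their nearest arrays, and the difference was 0.23 log2 units (standard error 0.15 and adjusted p = 0.511 in limma). It was 0.07 without Wildtype array 2 and 0.39 without Wildtype array 1.

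Traf6, the ubiquitin ligase on which the IRAK complex converges, was the only compared gene that was lower on the Myd88-KO arrays, and it stayed lower under the 5 ways of scaling, with normexp and without scaling. Its brightest probe (chr2:101519206-101519265, base 585 of a cDNA clone) read -0.23 and -0.28 on the Myd88-KO arrays and -0.12 and 0.08 on the Wildtype arrays. The difference was -0.23 log2 units (standard error 0.12 and adjusted p = 0.426 in limma), and -0.13 without Wildtype array 2. The probe near the end of the main Traf6 transcript (chr2:101540660-101540719, base 5002) read -1.20 and -1.34 against -1.20 and -1.14, a difference of -0.10, with Myd88-KO array 1 and Wildtype array 1 almost level. A Traf6 probe at base 1864 of another transcript was well above background on Wildtype array 1 alone and was not tested.

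Map3k7, which encodes TAK1, had the smallest difference of the 9 genes with this scaling. Its brightest probe (chr4:32107645-32107704, base 2965) read 2.27 and 2.35 on the Myd88-KO arrays and 2.22 and 2.21 on the Wildtype arrays, a difference of 0.09 log2 units (standard error 0.10 and adjusted p = 0.683 in limma) with a 95% interval of -0.19 to 0.37. At base 3423 (chr4:32108103-32108162) the difference was 0.28, with no overlap, and at base 1610 (chr4:32104023-32104082) it was 0.12, with overlap.

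**Figure D3:**
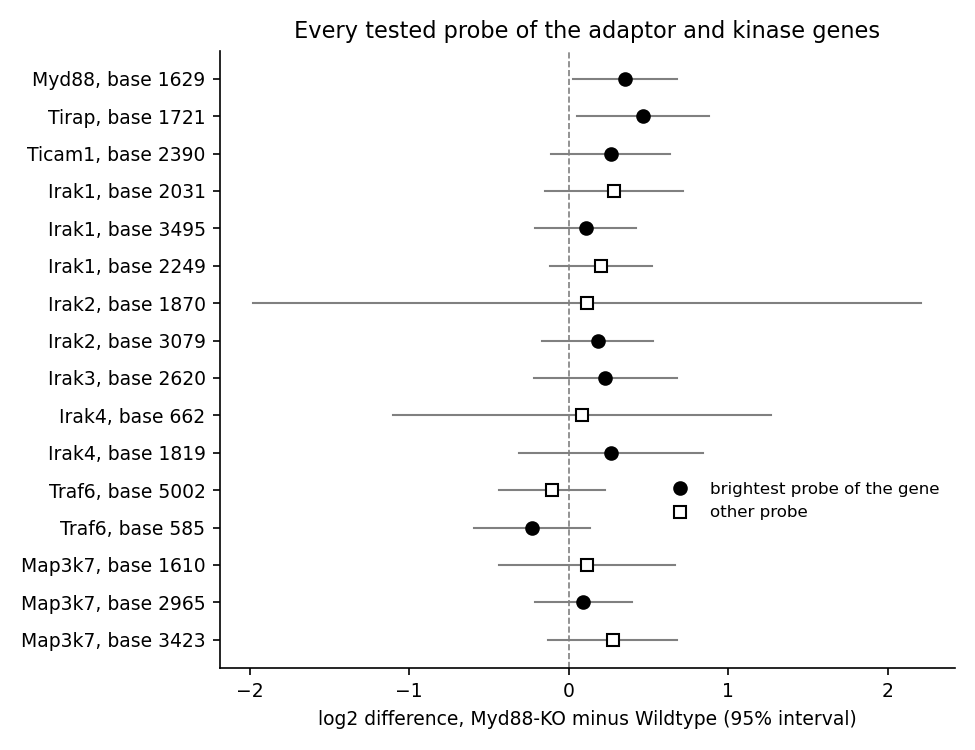
Log2 difference, Myd88-KO minus Wildtype, of the 16 tested probes of the adaptor and kinase genes with the 95% interval from limma's fit over 31016 probes (filled circles, brightest probe of a gene; open squares, other probes). Intervals of the Myd88 and Tirap probes lie above 0, and the interval of the Irak2 probe at base 1870 is the widest.

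Probe by probe, 16 of the 18 were tested, and the arrays of the groups did not overlap for 12 of these 16, against 49.5% of all tested probes. In that fit 2 of the 16, the Myd88 and Tirap probes, had an unadjusted p under 0.05, against 14.3% of all tested probes. The tested probes of each gene differed in the same direction, although their sizes differed. Since the number of detected probes split the arrays across the genotypes, the difference was also read within the pairs of arrays with like shares of detected probes, chosen after those shares were seen. Between Myd88-KO array 1 and Wildtype array 2, and between Myd88-KO array 2 and Wildtype array 1, Myd88 differed by 0.45 and 0.26, Tirap by 0.55 and 0.38, and Ticam1 by 0.40 and 0.13. Traf6 differed by -0.31 and -0.16. For Irak4 the pairs disagreed, at 0.58 and -0.05, and for the other 8 genes a like sign in both pairs follows from the lack of overlap.

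**Figure D4:**
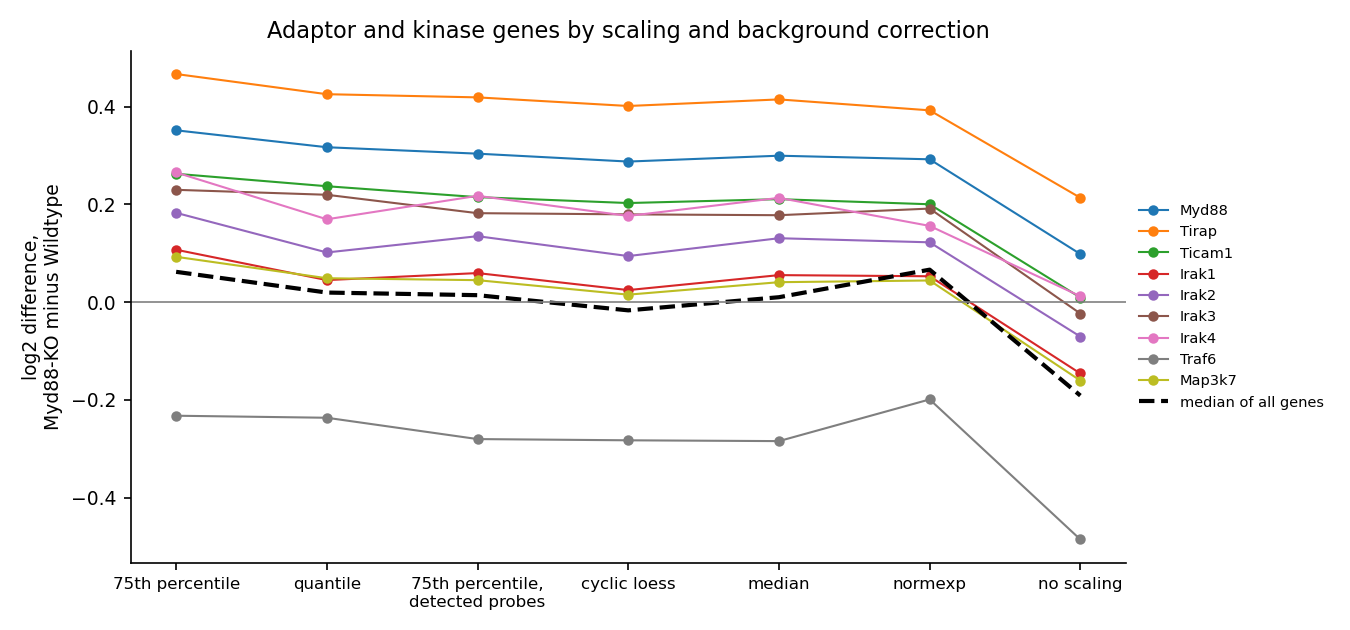
Log2 difference, Myd88-KO minus Wildtype, of 9 adaptor and kinase genes under 5 ways of scaling the arrays, with normexp background correction and without scaling, with the median of all tested genes as a dashed line. Tirap stays highest and Traf6 lowest in each, and without scaling every line drops with the median of all genes, to -0.19.

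The genes that surround the adaptors were examined as 7 lists, 67 genes in all. Of these 63 were tested, 34 were higher and 29 lower on the Myd88-KO arrays, and the median difference was 0.04 log2 units. Over all 22312 genes 13295 were higher and 9017 lower. In limma's test 0 of the 63 passed the adjusted threshold. An unadjusted p under 0.05 was found for 5 genes that were higher and 8 that were lower, 13 in all. The shares of all genes were 9.82% higher, 6.83% lower and 16.7% in either direction. The groups did not overlap for 41 of the 63 (65.1%, against 52% of all genes).

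**Figure D5:**
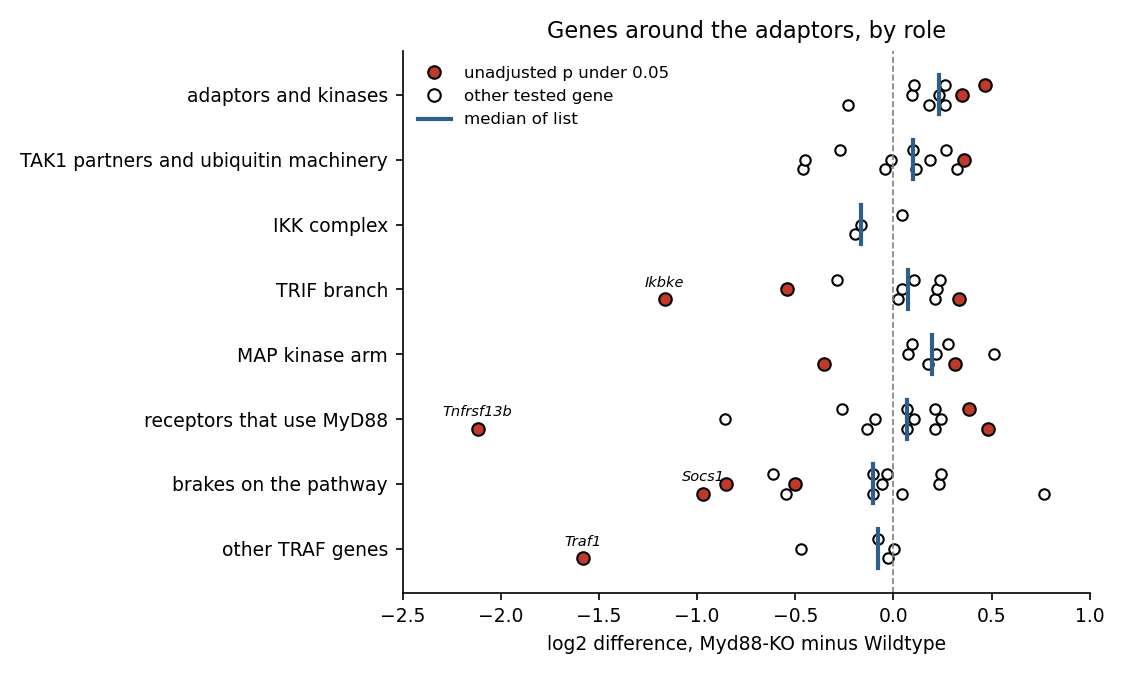
Log2 difference, Myd88-KO minus Wildtype, of each tested gene of the adaptors and kinases and of 7 lists around them (filled, unadjusted p under 0.05; open, others; bar, median of the list). Medians lie between -0.16 and 0.23, and the genes furthest left are Tnfrsf13b, Traf1, Ikbke and Socs1.

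Of 16 genes, those of receptors that use MyD88 and the accessory genes Cd14 and Ly96, 13 were tested. An unadjusted p under 0.05 was found for 3, against 16.7% of all genes. Tlr2, a receptor for bacterial lipoproteins, read 0.49 and 0.73 on the Myd88-KO arrays against 0.27 and -0.01, a difference of 0.48 (adjusted p = 0.292 from limma). Tlr7, a receptor for single-stranded RNA, read 4.09 and 3.99 against 3.57 and 3.74, a difference of 0.39 (adjusted p = 0.269 from limma). A dimmer Tlr7 probe went the other way, at -3.90 and -2.99 against -2.72 and -2.70, and with the mean of the tested probes Tlr7 was -0.17, so the direction of Tlr7 depends on the probe. Tnfrsf13b, which encodes the B cell receptor TACI, showed the largest difference of the 63 genes. Its brightest probe read -2.19 and -2.67 on the Myd88-KO arrays against 0.15 and -0.77, a difference of -2.12 (standard error 0.39 and adjusted p = 0.203 in limma). The other tested Tnfrsf13b probes did not follow it in size: 1 read -1.47 and -1.59 against -2.08 and -2.03, a difference of 0.53 in the other direction, and 1 was not well above background on either Myd88-KO array. With normexp background correction the brightest Tnfrsf13b probe differed by -1.24.

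Of 11 TAK1 partners and ubiquitin genes, 6 were higher and 5 lower, from -0.46 for Peli3 to 0.36 for Tab1 with a median of 0.10. Against 16.7% of all genes, 1 of the 11 had an unadjusted p under 0.05. It was Tab1, the activating subunit of TAK1, at 3.46 and 3.47 on the Myd88-KO arrays and a mean of 3.11 (SD 0.01, n = 2) on the Wildtype arrays, a difference of 0.36 (standard error 0.10 and adjusted p = 0.241 in limma). Of the 3 IKK complex genes 0 had an unadjusted p under 0.05, and the largest difference was -0.20 for the catalytic subunit gene Ikbkb (adjusted p = 0.502 from limma).

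In the MAP kinase arm 7 of 8 genes were higher and 1 lower. Mapk9, which encodes the kinase JNK2, read 3.34 and 3.25 on the Myd88-KO arrays against a mean of 2.98 (SD 0.02, n = 2) on the Wildtype arrays, a difference of 0.31 (adjusted p = 0.278 from limma), and its other probe differed by 0.42. Map2k6, which encodes a kinase of p38, read -1.81 and -1.71 against -1.35 and -1.45, a difference of -0.36 (adjusted p = 0.266 from limma), but with normexp it differed by -0.11 and did not have an unadjusted p under 0.05.

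Downstream of TRIF, 3 of 10 genes had an unadjusted p under 0.05. Tank, a scaffold that binds TRAF proteins and TBK1, was higher by 0.33 (adjusted p = 0.267 from limma), and its other probe by 0.37. Tbkbp1, another scaffold of TBK1, read 1.51 and 1.56 on the Myd88-KO arrays against 2.10 and 2.05, with a difference of -0.54 (standard error 0.10 and adjusted p = 0.203 in limma), and its other tested probe differed by -0.70. The kinase gene Ikbke read -4.10 and -3.72 against -2.60 and -2.90, a difference of -1.16 (adjusted p = 0.203 from limma), and was not well above background on Myd88-KO array 1. It entered the test through the Wildtype arrays, where it is brighter, so the filter bears on its direction, and with normexp it differed by -0.23, without an unadjusted p under 0.05. Under limma's trended and robust moderation, where 2.16% of all genes passed an adjusted p of 0.05, Tbkbp1 was the only one of the 63 genes that passed, and 0 of the 9 adaptor and kinase genes did.

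Of 13 tested brakes on the pathway 9 were lower and 4 higher. All 3 with an unadjusted p under 0.05 were lower, against 6.83% of all genes in that direction and 16.7% in either. Socs1, an inhibitor of cytokine signalling, read -2.71 and -2.75 on the Myd88-KO arrays against -1.92 and -1.62, a difference of -0.97 (standard error 0.15 and adjusted p = 0.194 in limma), and of -0.44 with normexp. The phosphatase genes Inpp5d (SHIP-1) and Ptpn6 (SHP-1) differed by -0.85 and -0.50 (adjusted p = 0.209 and 0.283 from limma). Among the other TRAF genes, Traf1 read -1.90 and -1.73 against 0.15 and -0.61, a difference of -1.58 (adjusted p = 0.204 from limma), and of -1.05 with normexp. Traf5 differed by -0.47 with no overlap (adjusted p = 0.388 from limma), whereas Traf2, Traf4 and Traf7 lay between -0.08 and 0.00 with overlapping arrays.

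Tnfrsf13b, Traf1, Inpp5d, Ptpn6, Socs1 and Ikbke, named here because they were lower, are genes that lymphocytes or other leukocytes use. Other immune genes of these lists went the other way with no overlap. They include Pik3ap1 at 0.77 (adjusted p = 0.458 from limma), Tlr2 at 0.48, Cd14 at 0.24 and Tlr4 at 0.21. Lymphocyte markers were lower on the Myd88-KO arrays. All 6 tested B cell markers of 8 were lower, and their summed signal, in units of the 75th percentile of the array, was 2.26 and 1.97 on the Myd88-KO arrays and 15.4 and 8.48 on the Wildtype arrays. The defining B cell marker Ms4a1 was not well above background on either Myd88-KO array. All 8 T cell markers were lower, at summed signals of 12.2 and 11.8 against 23.0 and 17.1. Cd3e and Cd4, which gave most of the sum on the Myd88-KO arrays, differed by only -0.06 and -0.04. Macrophage markers were mixed, with 5 higher and 3 lower and summed signals of 32.9 and 28.2 against 35.1 and 26.4, mostly from Csf1r. Of 6 tested neutrophil markers 5 were lower and 1 higher, with a median of -0.95. Their summed signals, 161 and 170 against 155 and 185, came almost wholly from Csf3r and do not describe the other markers. S100a9, a calprotectin subunit gene, differed by -1.45 (adjusted p = 0.296 from limma), while Csf3r differed by -0.03. All 7 tested skeletal muscle markers were lower (2.41 and 2.28 against 19.6 and 110), as were all 7 tested adipocyte markers (167 and 263 against 359 and 356), while 7 of 7 submandibular acinar markers were higher, with a median of 0.38 log2 units. Because probes differ in how well they bind, each sum is weighted to its brightest probes and is not the level of a cell type. The part of these cell type markers in the differences of the adaptor, kinase and pathway genes was not tested.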

How the data were processed

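Gene expression was measured in 4 samples, 2 per genotype. For each array, the authors deposited scanner output, in which the processed signal is an intensity that Feature Extraction 10.7.3.1 had corrected for background and for trends over the array but had not normalized between arrays. Raw spot and local background intensities, also deposited, served 1 alternative, and the deposited flags marked outliers, saturation and spots well above background. Names and positions (mm9) are those of the files; 1 probe's letters and 1 marker gene are not reported here. A processed table was not used, since its 4 value columns matched no sample label.

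Here, the 59305 non-control spots were scaled to the 75th percentile of their array and log2 transformed, outlier spots were left out and spots of a probe averaged. Detection required a share of more than 0.5 of a probe's spots flagged well above background, and a probe was tested when this held on both arrays of a genotype. The brightest tested probe stood for a gene. The genotypes were compared in R 4.3.3 by limma 3.58.1 (lmFit, eBayes), with p-values adjusted by Benjamini-Hochberg over all genes and a threshold of 0.05. The procedure was tested on simulated data.

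The genes, lists and tests were chosen with earlier results of these data known. Named are all 10 genes with every probe, and of each list up to 3 genes higher and 3 lower with an unadjusted p under 0.05, or else the gene with the largest difference. Other genes named were singled out after their values were seen. The alternatives planned were 16 settings: normexp (offset 50), 4 other scalings, 2 other filters, mean of probes, outliers kept, trended moderation, the methods' t-test, the replicate number as a block, and each array left out. A further 3 were added after seeing the data: no scaling, a crossed block, and every probe as a unit. Whether the authors' replicate numbers pair the samples cannot be told. Over 22312 genes, deviations of equal numbers correlated at -0.37. With 2 arrays per group the crossed pairing must then give 0.37, so the coefficient cannot decide it.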

Additional observations from a re-analysis of the deposited data

How the results depend on the processing

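Under the 18 alternatives run gene by gene, 0 of the 9 adaptor and kinase genes passed an adjusted p of 0.05 in any, and Myd88, Tirap, Ticam1 and Irak4 stayed higher and Traf6 lower in all. Myd88 ranged from 0.10 without scaling to 0.40, Tirap from 0.21 to 0.60 and Traf6 from -0.49 to -0.13. Without scaling, Irak1 was -0.15, Irak2 -0.070, Irak3 -0.023 and Map3k7 -0.16, while the median of all genes moved from 0.06 to -0.19. The count of these genes with an unadjusted p under 0.05, 2 as reported, was 1 with the 75th percentile over detected probes, with cyclic loess and with the methods' t-test, and 0 with median scaling, without a filter on dim probes and without scaling. With each array left out in turn it ranged from 0 to 1. Among the surrounding pathway genes the count, 13 as reported, was 3 with median scaling and 6 without the filter, and ranged from 6 to 10 with each array left out. With normexp, Ikbke and Map2k6 had no unadjusted p under 0.05. The share of all genes with an unadjusted p under 0.05, 16.7% as reported, moved too. It was 4.46% with median scaling, 7.33% without the filter, 13.1% without scaling and 13.2% with the methods' t-test. Over detected probes it was 15.9% with the 75th percentile and 17.0% with cyclic loess. With each array left out it was also below the reported share. Where this share fell, a lower count is not a result about the adaptor, kinase or pathway genes alone. After adjustment 1 pathway gene passed with median scaling (Tnfrsf13b) and 1 with trended and robust moderation (Tbkbp1), against 0 as reported. With median scaling each adaptor, kinase and pathway gene had the same standard error, 0.54. A pass there therefore reflects only the size of the difference and not the spread of that gene. Over all genes the adjusted count, 0 as reported (3715 at an unadjusted p under 0.05), was 402 with median scaling, 482 with trended and robust moderation, 79 with normexp, 72 without scaling and 1 with the methods' t-test. The replicate number as a block gave 0 adaptor and kinase genes and 6 pathway genes with an unadjusted p under 0.05, against 10.8% of all genes. After adjustment it gave 0 genes of either set. The crossed pairing gave 1 and 16 at an unadjusted p under 0.05, against 18.6% of all genes. The causes were not tested. With 2 arrays per genotype the number of arrays limits the precision, and dim probes such as those of Ticam2 gave no usable signal.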
